A study of Homo sapiens with 12 samples.

Results

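The transcripts described here are those of 43 listed genes of DNA replication and the G1/S transition, from origin licensing factors to polymerases, nucleotide-making enzymes and E2F and cyclin E genes. They are a list of symbols whose rule uses no measured value, although the list was drawn up with earlier results of these data known, and 42 of them were found among the 63677 Ensembl identifiers of the deposited table. UHRF1 was the 1 listed gene whose symbol matched no identifier, and it is not analysed here. All 42 passed the filter on low reads and were tested, so no member was lost to low counts. All 4 groups were labelled as HCT116, in the submitters' word clones, a long-established line from a human colorectal carcinoma, and kept in DMEM with 10% FCS. Each received doxycycline (labelled 1 ug/ul), and the time from its addition to RNA extraction is labelled 48 without a unit. The groups differed in the induced construct: mCherry, a fluorescent protein; CR3, a peptide that the series title calls condensate perturbing; and 2 further constructs named scramble and reverse, whose sequences the labels do not state. Each group had 3 polyA RNA-seq libraries, 12 in all. There was no group without doxycycline, the number of clones per group is not given, and the labels do not say that the libraries of a group came from separate cultures, so the p-values measure only the spread between these libraries.

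A cell copies its genome once per cycle. In G1 the origin recognition complex, CDC6 and CDT1 load the MCM2-7 helicase onto origins (licensing), geminin blocks CDT1 once S phase starts, and CDC45, the GINS complex and MCM10 turn the loaded helicase on. Primase and polymerases alpha, delta and epsilon then synthesize DNA with the sliding clamp PCNA and its loader RFC, while ribonucleotide reductase, thymidylate synthase and thymidine kinase supply nucleotides. Many of these genes are transcribed in late G1 and S phase under E2F factors, which cyclin E-CDK2 activity and loss of RB repression release. Their RNA level in a culture therefore depends both on how many cells are cycling and on transcription within each cell. In bulk samples fewer cells of a type and less RNA per cell cannot be told apart.

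Levels are given as normalized reads, the reads assigned to a gene divided by the library's size factor, as the deposited values imply it. Library totals lay between 17418155 and 23548444 reads. Reads of epithelial markers were present in all groups. The 12 markers, among them EPCAM, CDH1 and KRT8, summed to 65481 to 74143 normalized reads in the 9 mCherry, scramble and reverse libraries. In CR3 they summed to 53717 to 62146, and 8 of the 11 tested were lower. A list of 15 matched markers of an embryonic kidney and neuron-like line summed to 2965 to 3173 in the CR3 libraries and to 272 to 347 in the others, and 11 of its 12 tested genes were higher in CR3 than in the mean of the other groups. IRS4 had 549.8 ± 54.2 normalized reads in CR3 (SD, n = 3) and at most 6.73 in any other library, and UCHL1 had 493.5 ± 51.4 and at most 6.25. ELAVL4 was 1 of 2 genes of this list with no read in any of the 12 libraries, and WT1 and STMN2 had none outside CR3. The lowest log2 fold change of its 12 tested genes was 0.03, which was not called. The 12 mesenchymal markers summed to 2861 to 3229 in CR3 and 1318 to 1693 elsewhere, with 5 of 5 tested higher, and the 8 blood markers, none of which passed the filter, summed to at most 17.0 in any library. These marker differences moved with CR3, as did every decrease described next, and their part in those decreases was not tested. Whether the CR3 libraries hold RNA of another cell line was not tested either, so each CR3 difference is one between libraries with these labels.

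Replication genes were lower in CR3 cells. In a limma fit on log2(normalized reads + 1) over all 12 libraries, with Benjamini-Hochberg adjustment over 15407 genes and a call at adjusted p under 0.05, 35 of the 42 genes were lower in CR3 than in the mean of the other 3 groups, a comparison in which 21.0% of all genes were called lower. Higher in CR3 were 0 of the 42 by limma or with its voom weights, beside 20.9% of all genes by limma at that threshold. The count was 0 also at an unadjusted p under 0.05, which 7571 of all 15407 genes had by limma in either direction. Set against mCherry, 26 were lower (14.6% of all genes), set against scramble, 40 (18.8%), and set against reverse, 34 (16.9%). These 3 comparisons share the CR3 libraries. Called against the mean of the 3 but not against mCherry were ORC6, CDT1, GINS4, RFC3, RFC4, POLD3, POLE, POLE2 and CCNE1. The median log2 fold change of the 42 was -0.26 against mCherry, -0.46 against scramble, -0.35 against reverse and -0.36 against the mean of the 3, beside medians between 0.00 and 0.01 over all genes. Single genes ranged from -0.69 (TK1) to 0.02 (CDC45) in the last comparison. In 28 of the 42 genes all 3 CR3 libraries lay below all 9 others, which held for 13.5% of the genes tested, and in 0 did they lie above (13.9% of the genes tested). Reads of the 42 genes made up 0.397 ± 0.0136% of a CR3 library (SD, n = 3), 0.466 ± 0.0052% of an mCherry library, 0.494 ± 0.023% of a reverse library and 0.526 ± 0.0038% of a scramble library. The highest CR3 library, at 0.411%, was below the lowest of the other 9, at 0.461%.

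The size of the decrease depended on the scaling. With library totals in place of the deposited size factors, the 4 medians were -0.18, -0.36, -0.26 and -0.27, and 23, 35, 28 and 32 genes were lower in the same order. Under that scaling CDC45 was called higher against mCherry (log2 fold change 0.21, limma adjusted p = 0.0301). Over all genes it moved the share of calls that were increases from 49.1 to 73.7% against mCherry, from 50.6 to 71.3% against scramble, from 50.2 to 72.4% against reverse and from 49.9 to 72.3% against the mean of the 3, and the median gene against scramble to 0.103.

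**Figure D1:**
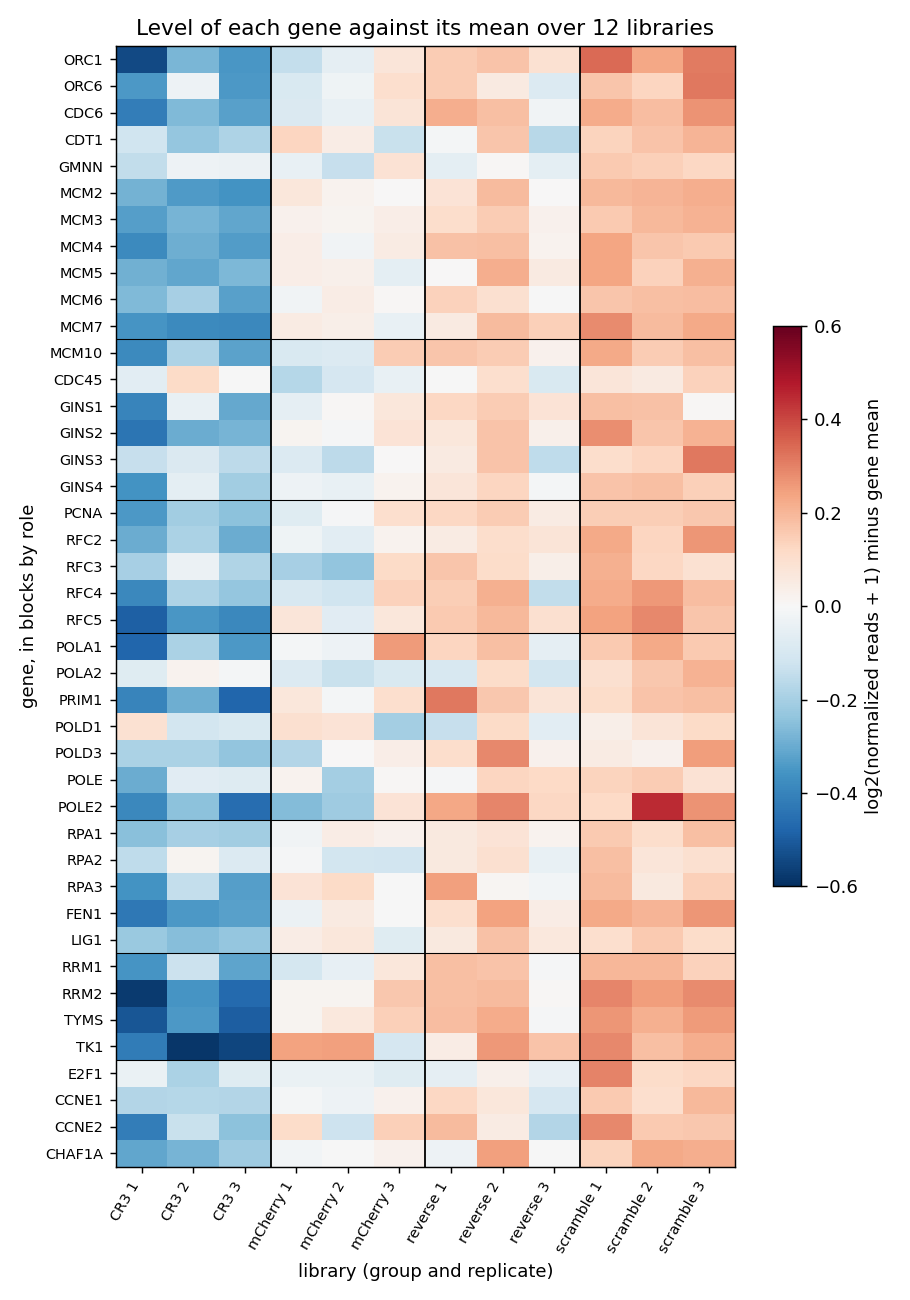
Level of each of the 42 genes in each of the 12 libraries, as log2(normalized reads + 1) minus the gene's mean over the libraries, in blocks by role with licensing at the top. Blue is below the gene's mean and red above: the 3 CR3 columns are mostly blue and the 3 scramble columns red, and CDC45 and POLD1 differ little between the CR3 columns and the rest.

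The promoters of these genes are shown because promoter letters were no part of the rule that lists the genes. RefSeq windows on GRCh38.p14 were matched for 35 of the 42 genes, each reaching from 250 bases before to 50 after an annotated start. E2F-type letters were searched as TTTCCCGC, TTTCGCGC, TTTGCCGC and TTTGGCGC on both strands, and the CCAAT box, bound by NF-Y, as CCAAT on both strands. The 250 bases before the start are printed for MCM7 and MCM3, the licensing genes with the smallest p-values, and for TYMS and RRM2, both strongly lower. They are printed also for E2F1 and POLA2, both not called against the mean of the other groups. Where a gene had more than 1 window, the 1 printed has the most E2F-type matches, then the most CCAAT matches. MCM7 has 3 windows, 1 of them with E2F-type letters, and RRM2 has 2. Capitals mark the E2F-type letters and CCAAT or its reverse complement ATTGG. The strand given is the one printed, 5′ to 3′.

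MCM7 (chr7:100101398-100101647, minus strand): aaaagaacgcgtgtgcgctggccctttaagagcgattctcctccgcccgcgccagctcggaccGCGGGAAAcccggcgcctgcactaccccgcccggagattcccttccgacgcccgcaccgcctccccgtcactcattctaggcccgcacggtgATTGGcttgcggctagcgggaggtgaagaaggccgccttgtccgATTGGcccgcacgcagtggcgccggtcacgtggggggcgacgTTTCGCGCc

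MCM3 (chr6:52284743-52284992, minus strand): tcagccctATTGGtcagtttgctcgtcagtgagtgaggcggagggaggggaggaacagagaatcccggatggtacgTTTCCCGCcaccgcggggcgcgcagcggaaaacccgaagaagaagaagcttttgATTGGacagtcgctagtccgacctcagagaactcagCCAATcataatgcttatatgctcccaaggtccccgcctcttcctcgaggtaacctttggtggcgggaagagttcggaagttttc

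TYMS (chr18:657403-657652, plus strand): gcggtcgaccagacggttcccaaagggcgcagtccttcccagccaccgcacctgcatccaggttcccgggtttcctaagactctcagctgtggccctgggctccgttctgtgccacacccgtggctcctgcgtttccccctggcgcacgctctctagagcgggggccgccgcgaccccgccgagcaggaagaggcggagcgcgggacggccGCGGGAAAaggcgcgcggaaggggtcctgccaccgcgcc

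RRM2 (chr2:10122489-10122738, plus strand): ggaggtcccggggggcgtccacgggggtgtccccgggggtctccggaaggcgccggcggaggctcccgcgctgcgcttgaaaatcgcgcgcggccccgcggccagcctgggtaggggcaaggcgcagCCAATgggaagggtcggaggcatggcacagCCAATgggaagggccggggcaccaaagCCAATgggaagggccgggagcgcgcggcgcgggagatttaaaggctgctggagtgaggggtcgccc

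E2F1 (chr20:33686386-33686635, minus strand): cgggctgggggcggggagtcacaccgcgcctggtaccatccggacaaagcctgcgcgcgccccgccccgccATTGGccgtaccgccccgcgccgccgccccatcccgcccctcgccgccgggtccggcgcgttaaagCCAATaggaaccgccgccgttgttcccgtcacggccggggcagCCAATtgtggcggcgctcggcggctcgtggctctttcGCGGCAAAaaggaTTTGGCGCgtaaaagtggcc

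POLA2 (chr11:65261712-65261961, plus strand): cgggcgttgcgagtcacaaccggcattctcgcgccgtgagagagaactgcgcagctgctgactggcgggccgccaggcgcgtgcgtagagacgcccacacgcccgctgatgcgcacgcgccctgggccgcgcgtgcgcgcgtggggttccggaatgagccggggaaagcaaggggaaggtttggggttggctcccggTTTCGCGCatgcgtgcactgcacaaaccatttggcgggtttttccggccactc

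The E2F-type letters occurred in 19 of the 35 genes (54.3%), beside 3.99% of all 27305 genes in the promoter table. Genes with and without them had like fold changes. The 19 genes with the letters had a median log2 fold change of -0.35 in CR3 against the mean of the other groups, with 15 called lower, and the 16 without had -0.36, with 14 called lower. CCAAT occurred in 22 of the 35 (62.9%, against 39.7% of all genes), with a median of -0.38 and 19 lower, and the 13 genes without it had -0.31 and 10 lower. RRM2 above holds CCAAT letters and no E2F-type letters, and E2F1 and POLA2 hold E2F-type letters although neither was called against the mean of the other groups. The letters of both motifs overlapped in 1 of the 47 windows of the 36 listed genes in the promoter table, UHRF1 included, and a gene counts as holding a motif if any of its windows does. A match of letters is no binding site by itself, and no test was run on these medians.

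Licensing genes were lower in 10 of 11 cases, with a median log2 fold change of -0.41 against the mean of the other groups. MCM7 (ENSG00000166508, chr7:100092728-100101940, minus strand), a subunit of the helicase ring, stood at 5186, 5090 and 5075 normalized reads in the CR3 libraries, 6854, 6791 and 6424 in mCherry, 6895, 7563 and 7327 in reverse and 8064, 7561 and 7753 in scramble. Its CR3 libraries were close to each other and all below the other 9. It fell by 29.2% against the mean of the other 3 groups (log2 fold change -0.50 ± 0.037, adjusted p = 9.01e-09, limma, SE over 3 CR3 and 9 other libraries). MCM3 (ENSG00000112118, chr6:52264009-52284881, minus strand), another subunit of the ring, stood at 3974, 4121 and 4023 normalized reads in the CR3 libraries, 5089, 5047 and 5141 in mCherry, 5368, 5547 and 5092 in reverse and 5569, 5710 and 5781 in scramble. Again no CR3 library reached the lowest of the others, and the gene fell by 24.7% (log2 fold change -0.41 ± 0.034, adjusted p = 3.61e-08, limma). The remaining 4 ring subunits moved by similar amounts. MCM4 fell by 26.7%, MCM2 by 26.2%, MCM5 by 23.5% and MCM6 by 21.7%.

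ORC1 (ENSG00000085840, chr1:52372829-52404459, minus strand), the largest subunit of the origin recognition complex, stood at 556, 668 and 634 normalized reads in the CR3 libraries, 734, 779 and 851 in mCherry, 899.9, 911 and 864 in reverse and 1024, 952 and 1004 in scramble. The CR3 libraries were lowest and the scramble libraries highest, with no overlap between them. ORC1 fell by 30.3% against the mean of the other groups (log2 fold change -0.52 ± 0.059, adjusted p = 2.1e-06, limma), and its log2 fold changes against mCherry, scramble and reverse were -0.35, -0.68 and -0.53. CDC6, the ATPase that brings the helicase to the origin, fell by 26.6%, the small subunit ORC6 by 19.8% and CDT1, the helicase's loading partner, by 15.3%. The CDT1 call was lost with library totals (limma adjusted p = 0.0553).

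GMNN (ENSG00000112312, chr6:24774931-24786099, plus strand), which encodes geminin, the inhibitor of CDT1, was the exception among licensing genes. It stood at 839, 911 and 907 normalized reads in the CR3 libraries, 902, 845 and 988 in mCherry, 895, 934 and 892 in reverse and 1038, 1028 and 1014 in scramble. CR3 overlapped mCherry and reverse, and the scramble libraries were the highest. Against the mean of the other groups its log2 fold change was -0.10 with a 95% interval of -0.20 to 0.01 and a limma adjusted p of 0.137. Against scramble alone it was lower (log2 fold change -0.21 ± 0.061, adjusted p = 0.011), a call lost with library totals (0.127) and without CR3 replicate 1 (0.0512).

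Among the 6 genes that switch the helicase on, 4 were lower. GINS2 (ENSG00000131153, chr16:85676198-85690073, minus strand), a subunit of the 4-part GINS complex, stood at 916, 1011 and 1024 normalized reads in the CR3 libraries, 1257, 1239 and 1318 in mCherry, 1305, 1399 and 1270 in reverse and 1512, 1398 and 1439 in scramble. All CR3 values were below the rest, and the gene fell by 27% (log2 fold change -0.45 ± 0.047, adjusted p = 7.24e-07, limma). MCM10 (ENSG00000065328, chr10:13161554-13211104, plus strand), a scaffold of helicase activation, stood at 1026, 1178 and 1072 normalized reads in the CR3 libraries, 1257, 1264 and 1485 in mCherry, 1503, 1487 and 1363 in reverse and 1565, 1485 and 1516 in scramble. CR3 replicate 2 came nearest to the mCherry libraries but did not overlap them, and MCM10 fell by 23.8% (log2 fold change -0.39 ± 0.056, adjusted p = 2.69e-05, limma). GINS1 fell by 20.5% and GINS4 by 17.6%. GINS3 had a log2 fold change of -0.17 with an adjusted p of 0.0586. It passed without reverse replicate 3 (0.0188) or without mCherry replicate 2 (0.0488).

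CDC45 (ENSG00000093009, chr22:19479459-19520612, plus strand), the partner of the MCM ring and GINS in the active helicase, had the highest fold change of the 42. It stood at 577, 654 and 603 normalized reads in the CR3 libraries, 536, 562 and 585 in mCherry, 602, 647 and 566 in reverse and 635, 627 and 664 in scramble. The CR3 values lay inside the range of the others: all 3 exceeded 2 of the mCherry libraries, and 2 of the 3 were below every scramble library. The log2 fold change against the mean of the other groups was 0.02 with a 95% interval of -0.10 to 0.14 (limma adjusted p = 0.79), and against mCherry, scramble and reverse it was 0.12, -0.07 and 0.02.

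The clamp and all 4 small loader subunits were lower than in the mean of the other groups. PCNA (ENSG00000132646, chr20:5114953-5126626, minus strand), the ring that holds polymerases on DNA, stood at 4012, 4396 and 4285 normalized reads in the CR3 libraries, 4841, 5064 and 5453 in mCherry, 5547, 5652 and 5256 in reverse and 5632, 5640 and 5688 in scramble. The 3 CR3 libraries were the lowest of the 12, and PCNA fell by 21.9% (log2 fold change -0.36 ± 0.041, adjusted p = 2.03e-06, limma). RFC5 (ENSG00000111445, chr12:118013588-118033130, plus strand), a small subunit of the clamp loader, stood at 1063, 1171 and 1142 normalized reads in the CR3 libraries, 1571, 1425 and 1567 in mCherry, 1666, 1706 and 1595 in reverse and 1766, 1826 and 1678 in scramble. The gap between the highest CR3 library and the lowest other library was larger than the range of the CR3 libraries. RFC5 fell by 31.4% (log2 fold change -0.54 ± 0.046, adjusted p = 4.97e-08, limma). RFC4 fell by 21.9% and RFC2 by 21.4%. Against mCherry alone RFC4 (log2 fold change -0.24, limma adjusted p = 0.0531) and RFC3 (-0.03, 0.818) were not called. RFC3, at 12%, was the weakest call (adjusted p = 0.037), and it was lost with library totals (0.269), with upper quartile scaling (0.063), without the low-read filter (0.0576) and without any 1 of CR3 replicates 1 and 3, scramble replicates 1 and 2 and reverse replicates 1 and 2 (0.0501 to 0.155).

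Of 7 polymerase and primase genes, 5 were lower. PRIM1 (ENSG00000198056, chr12:56731596-56752373, minus strand), the catalytic primase subunit that lays down RNA primers, stood at 462, 496 and 437 normalized reads in the CR3 libraries, 637, 603 and 653 in mCherry, 757, 682 and 642 in reverse and 657, 686 and 689 in scramble. The highest CR3 library was below the lowest of the other 9, and PRIM1 fell by 30.2% (log2 fold change -0.52 ± 0.06, adjusted p = 2.22e-06, limma). POLA1 (ENSG00000101868, chrX:24693919-24996986, plus strand), the catalytic subunit of polymerase alpha, stood at 896, 1090 and 979 normalized reads in the CR3 libraries, 1233, 1220 and 1487 in mCherry, 1362, 1409 and 1199 in reverse and 1388, 1459 and 1386 in scramble. CR3 did not overlap the other groups, mCherry replicate 3 was the highest library, and POLA1 fell by 26.8% (log2 fold change -0.45 ± 0.068, adjusted p = 4.88e-05, limma). POLE2 (ENSG00000100479, chr14:49643555-49688422, minus strand), a non-catalytic subunit of polymerase epsilon, stood at 241, 266 and 229.6 normalized reads in the CR3 libraries, 263, 272 and 334 in mCherry, 371, 386 and 344 in reverse and 342, 430.0 and 380.5 in scramble. mCherry replicate 1 fell within the CR3 range, and the scramble and reverse libraries were all above it. POLE2 fell by 28.5% against the mean of the other groups (log2 fold change -0.48 ± 0.089, adjusted p = 0.000319, limma), with -0.23, -0.64 and -0.58 against mCherry, scramble and reverse, of which the difference from mCherry was not called (adjusted p = 0.127).

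POLD3, an accessory subunit of polymerase delta, fell by 17.3%, and POLE, the leading-strand polymerase, by 12.7%. Against mCherry alone neither was called (log2 fold changes -0.16 and -0.09, limma adjusted p = 0.21 and 0.362). The POLE call was lost with library totals (0.138) and without CR3 replicate 1 (0.109). POLD1, the catalytic subunit of polymerase delta, had a log2 fold change of -0.05 (95% interval -0.19 to 0.09, adjusted p = 0.595). POLA2, the regulatory subunit of polymerase alpha, stood at 637, 682 and 665 normalized reads in the CR3 libraries, 633, 611 and 629 in mCherry, 628, 725 and 622 in reverse and 716, 751 and 777 in scramble. All 3 CR3 libraries were above the mCherry libraries and below the scramble libraries. The log2 fold changes of POLA2 against mCherry, scramble and reverse were 0.08, -0.18 and 0.01, with limma adjusted p of 0.404, 0.0496 and 0.932. The call against scramble was lost with library totals (0.332), upper quartile scaling (0.091), a pseudocount of 5 (0.0508), no low-read filter (0.0716) and powers chosen without labels (0.0509). It was also lost without any 1 library other than mCherry replicate 3 or reverse replicate 2 (0.0514 to 0.164). Within the same polymerase, POLA1 and POLA2 thus had 95% intervals of -0.59 to -0.31 and -0.15 to 0.09 against the mean of the other groups, and the difference between them was not tested.

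**Figure D2:**
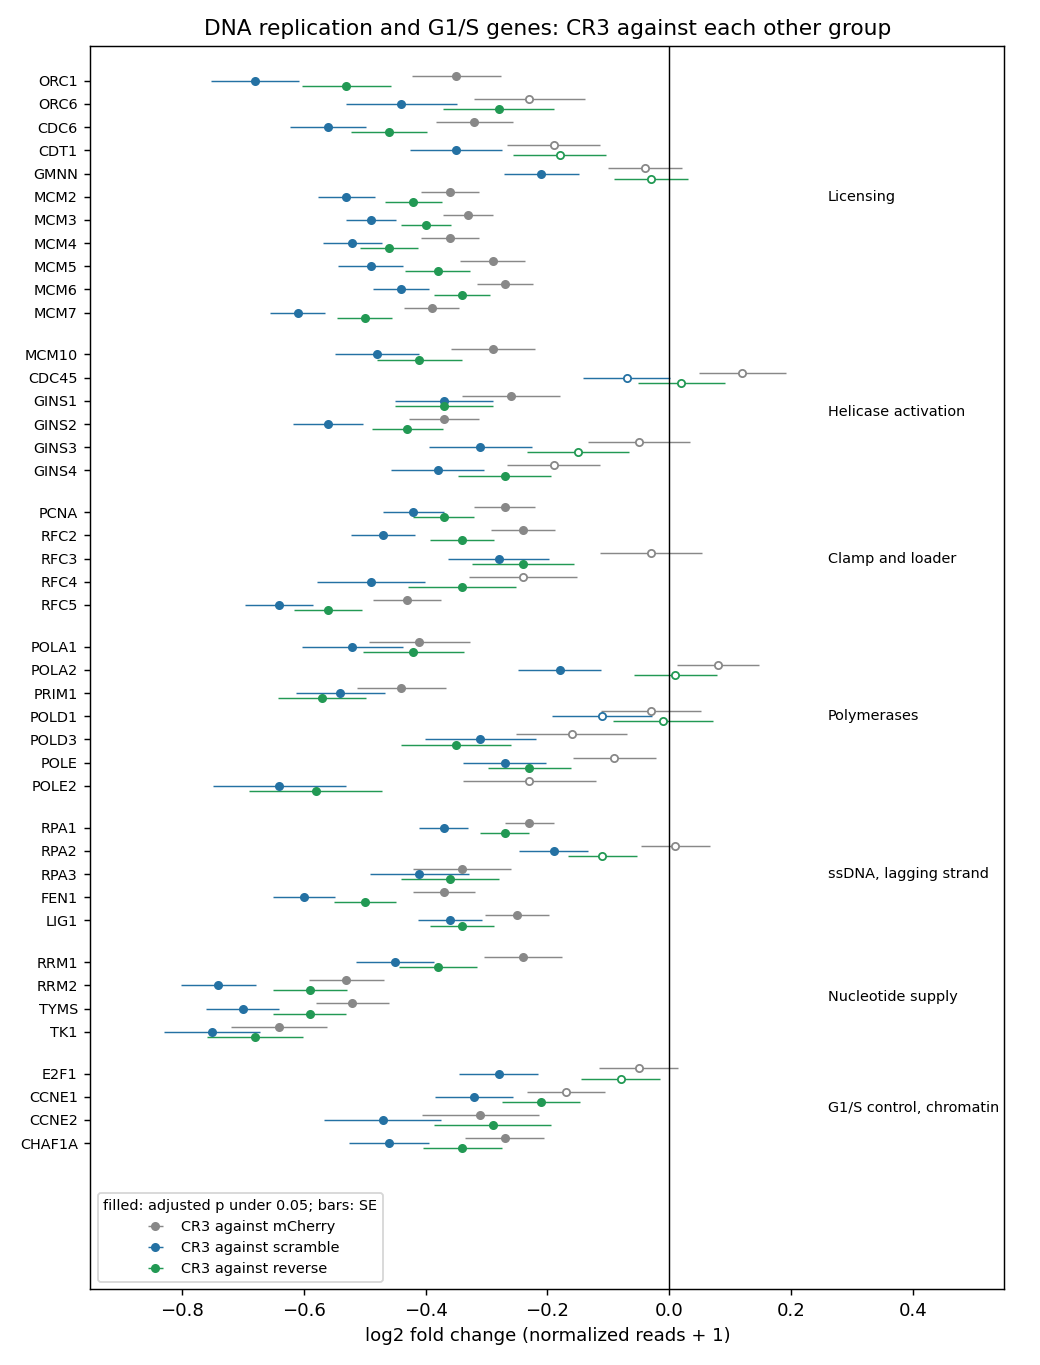
Log2 fold change of CR3 against mCherry (grey), scramble (blue) and reverse (green) for each of the 42 genes, with bars of 1 SE from the limma fit and filled points at adjusted p under 0.05. Most points lie left of 0, the blue points usually farthest, and CDC45, POLD1 and POLA2 lie near 0.

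Single-stranded DNA binding and lagging-strand genes were lower in 4 of 5 cases. FEN1 (ENSG00000168496, chr11:61792637-61797244, plus strand), the nuclease that trims Okazaki fragment flaps, stood at 2462, 2604 and 2636 normalized reads in the CR3 libraries, 3227, 3437 and 3301 in mCherry, 3544, 3917 and 3414 in reverse and 3880, 3816 and 3974 in scramble. The CR3 libraries were the lowest and the scramble libraries overlapped only reverse replicate 2. FEN1 fell by 28.8% (log2 fold change -0.49 ± 0.042, adjusted p = 6.16e-08, limma). RPA1 (ENSG00000132383, chr17:1829702-1900082, plus strand), the large subunit of the single-strand binding complex, stood at 3319, 3434 and 3419 normalized reads in the CR3 libraries, 3884, 4068 and 4020 in mCherry, 4111, 4182 and 4008 in reverse and 4398, 4240 and 4468 in scramble. The groups did not overlap CR3, and RPA1 fell by 18.3% (log2 fold change -0.29 ± 0.033, adjusted p = 1.93e-06, limma). RPA3 fell by 22.5% and the ligase LIG1 by 19.6%. RPA2, the middle subunit, had a log2 fold change of -0.10 (95% interval -0.20 to 0.00, adjusted p = 0.105), and it passed without CR3 replicate 2 (0.0369).

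Nucleotide supply held the 3 largest decreases, with 4 of 4 genes lower and a median of -0.61. TK1 (ENSG00000167900, chr17:78174075-78187233, minus strand), the thymidine kinase of the salvage pathway, stood at 3113, 2779 and 2843 normalized reads in the CR3 libraries, 4917, 4929 and 3875 in mCherry, 4298, 4991 and 4684 in reverse and 5090, 4713 and 4843 in scramble. The lowest of the other libraries, mCherry replicate 3, was still above the highest CR3 library. TK1 fell by 38% (log2 fold change -0.69 ± 0.065, adjusted p = 1.92e-07, limma), the largest decrease of the 42. RRM2 (ENSG00000171848, chr2:10120698-10131419, plus strand), the S phase subunit of ribonucleotide reductase, stood at 4750, 5525 and 5122 normalized reads in the CR3 libraries, 7140, 7150 and 7922 in mCherry, 8008, 8056 and 7105 in reverse and 8661, 8416 and 8594 in scramble. CR3 did not overlap any other group, and RRM2 fell by 34.9% (log2 fold change -0.62 ± 0.05, adjusted p = 2.53e-08, limma). TYMS (ENSG00000176890, chr18:657604-673578, plus strand), which makes thymidylate, stood at 2648, 2975 and 2685 normalized reads in the CR3 libraries, 3824, 3947 and 4176 in mCherry, 4302, 4416 and 3761 in reverse and 4545, 4385 and 4513 in scramble. The values were separated in the same manner, and TYMS fell by 34.1% (log2 fold change -0.60 ± 0.049, adjusted p = 3.3e-08, limma). RRM1, the large reductase subunit, fell by 21.9% (log2 fold change -0.36 ± 0.052, adjusted p = 3.35e-05, limma).

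Of the 4 measured genes of G1/S control and chromatin, 3 were lower. CHAF1A (ENSG00000167670, chr19:4402662-4445018, plus strand), which places histones on new DNA, stood at 1094, 1120 and 1172 normalized reads in the CR3 libraries, 1345, 1359 and 1386 in mCherry, 1331, 1615 and 1356 in reverse and 1493, 1592 and 1584 in scramble. No CR3 library overlapped the rest, and it fell by 22% (log2 fold change -0.36 ± 0.053, adjusted p = 3.49e-05, limma). CCNE2 (ENSG00000175305, chr8:94879770-94896678, minus strand), an E-type cyclin, stood at 518, 629.8 and 582 normalized reads in the CR3 libraries, 746, 634 and 765 in mCherry, 788, 715 and 612 in reverse and 844, 771 and 774 in scramble. CR3 replicate 2 was above reverse replicate 3, the 1 overlap, and CCNE2 fell by 21.8% (log2 fold change -0.35 ± 0.079, adjusted p = 0.00161, limma). CCNE1 fell by 14.9% (log2 fold change -0.23 ± 0.052, adjusted p = 0.00165, limma).

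E2F1 (ENSG00000101412, chr20:33675683-33686404, minus strand), the transcription factor that drives many of these genes, stood at 734, 660.5 and 718 normalized reads in the CR3 libraries, 732, 734 and 716 in mCherry, 726, 770.0 and 729 in reverse and 926, 812 and 821 in scramble. The CR3 libraries overlapped mCherry and reverse, and the scramble libraries were the highest. The difference from the mean of the other groups missed the threshold (log2 fold change -0.13 ± 0.053, adjusted p = 0.054, limma, 95% interval -0.25 to -0.02). It passed without mCherry replicate 3 (0.0454), without CR3 replicate 1 (0.0478) or without scramble replicate 2 (0.0479). Against scramble alone it was called (log2 fold change -0.28 ± 0.065, adjusted p = 0.00288), and against mCherry and reverse it was not (0.629 and 0.402).

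**Figure D3:**
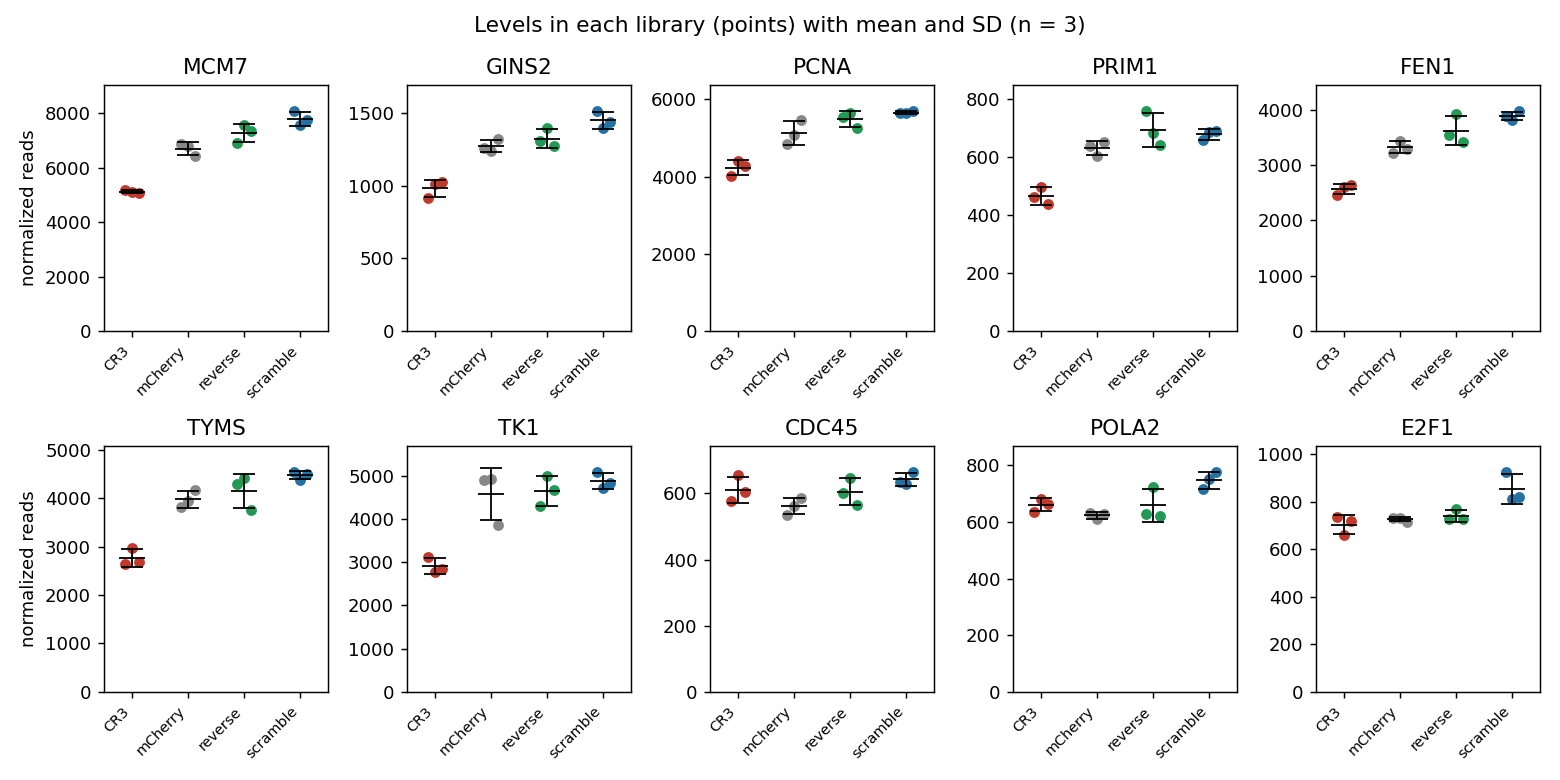
Normalized reads of 10 of the genes in each library (points) with the mean and SD of each group (n = 3), on linear axes that start at 0. In MCM7, GINS2, PCNA, PRIM1, FEN1, TYMS and TK1 the CR3 points are below all others, while in CDC45, POLA2 and E2F1 they are not.

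Group means of the 42 genes were mostly lowest in CR3 and highest in scramble. CR3 had the lowest mean in 39 of the 42 genes and mCherry in 3 (CDC45, POLA2 and RPA2), while over all genes tested CR3 was lowest in 37.3%. Scramble had the highest mean in 40 of the 42 and reverse in 2 (PRIM1 and POLD3), whereas over all genes scramble was highest in 25.2%. Within a group, many of the genes had the same library at the top or bottom, so the 42 genes are not independent replicates. Reverse replicate 3 was the lowest of its group in 33 genes and reverse replicate 2 the highest in 32, and in CR3 replicate 1 was lowest in 27 and replicate 2 highest in 31. The median coefficient of variation of the 42 genes within a group was 3.06% in scramble, 4.85% in mCherry, 5.73% in CR3 and 6.69% in reverse. Over tested genes averaging at least 100 normalized reads it was 4.08% in scramble, 6.59% in mCherry, 5.88% in CR3 and 5.0% in reverse.

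Scramble against mCherry asks whether the groups without CR3 differ. All 42 genes had positive log2 fold changes in scramble, from 0.07 to 0.41 with a median of 0.19. Of them 32 had an unadjusted limma p under 0.05, as had 2262 of all 15407 genes in either direction. After adjustment 4 were higher by limma, MCM7, ORC1, RFC2 and FEN1, beside 0.837% of all genes higher and 0.824% lower, and voom called 6. None of the 42 was lower, also at an unadjusted p under 0.05 by limma or voom. MCM7 rose by 16.5% (log2 fold change 0.22 ± 0.045, adjusted p = 0.0166), ORC1 by 26.2% (log2 fold change 0.34 ± 0.073, adjusted p = 0.0247), FEN1 by 17.1% and RFC2 by 17.2%, all by limma. The count turned on single libraries. It was 15 without mCherry replicate 3, 7 without reverse replicate 2, 2 without CR3 replicate 3 or scramble replicate 2, 1 without mCherry replicate 1 or 2, and 0 without scramble replicate 1 or 3. In a fit of these groups alone it was also 0.

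In group means reverse was between mCherry and scramble for most of the genes. Single libraries overlapped: the 42 genes made up 0.47% of the reads of reverse replicate 3 and 0.471% of those of mCherry replicate 3. Against mCherry the median was 0.09, with 0 genes called by limma or voom. By limma 0.318% of all genes were called higher and 0.415% lower. At an unadjusted p under 0.05 there were 9 by limma and 10 by voom, beside 1499 of all 15407 genes by limma in either direction. POLE2, at 0.35 ± 0.109, had an adjusted p of 0.268. Without mCherry replicate 3 both POLE2 (0.047) and RFC3 (0.0243) were called. Against scramble the median was -0.10, with 0 called by limma or voom. By limma 0.188% of all genes were called lower and 0.325% higher. An unadjusted p under 0.05 held for 13 of the 42 with either, beside 1128 of all 15407 genes by limma in either direction. GMNN and E2F1 had the smallest adjusted p-values of the 42, 0.491 and 0.454, at -0.18 ± 0.061 and -0.20 ± 0.065 (limma).

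**Figure D4:**
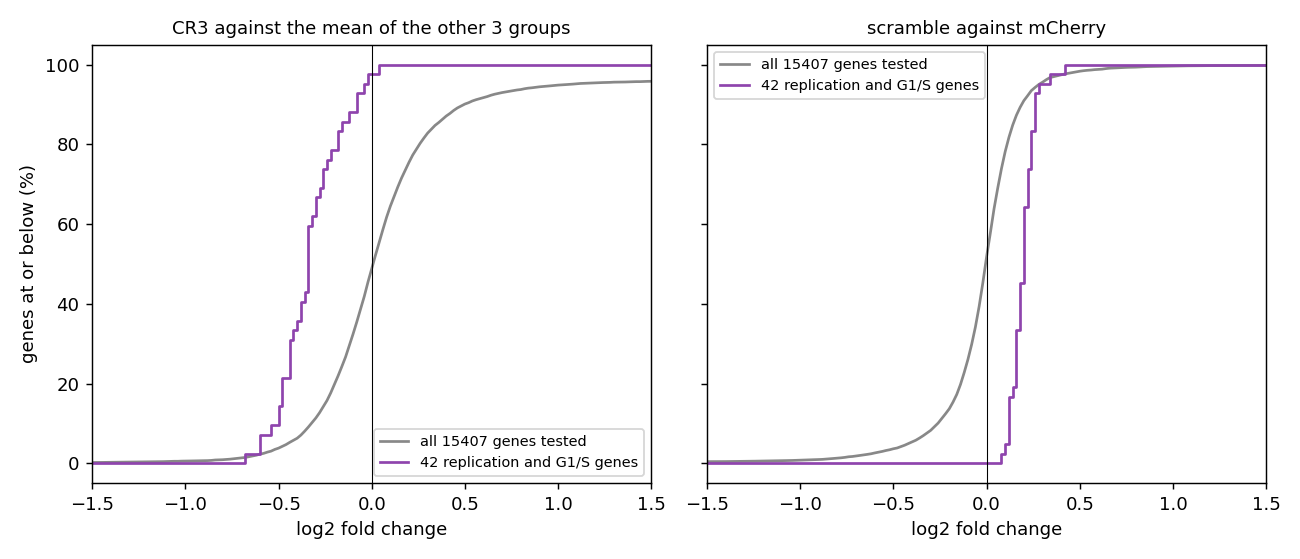
Cumulative share (%) of genes at or below each log2 fold change, for all genes tested (grey) and for the 42 replication and G1/S genes (purple), with CR3 against the mean of the other 3 groups on the left and scramble against mCherry on the right. The purple line is shifted to the left in the left panel (median -0.36) and to the right in the right panel (median 0.19), and both axes are cut at -1.5 and 1.5.

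Further genes of the pathway, from lists written with earlier results of these data known, moved mostly the same way against the mean of the other groups. Of 33 other replication genes 22 were lower and 1 higher, with a median of -0.28, beside 21.0% of all genes lower and 20.9% higher. ASF1B, a histone chaperone, fell and had 1208 ± 37.8 normalized reads in CR3, 1689 ± 46.7 in mCherry, 1700 ± 119 in reverse and 1811 ± 23.2 in scramble (SD, n = 3, log2 fold change -0.52 ± 0.043, adjusted p = 4.28e-08, limma). POLD2, the small subunit of polymerase delta, fell by 24.1% and the MCM-binding protein MCMBP by 22.6%. POLE4, a histone-fold subunit of polymerase epsilon, was the 1 that rose, with 245 ± 24.4 normalized reads in CR3, 189 ± 21 in mCherry, 191 ± 15.3 in reverse and 195 ± 8.48 in scramble (log2 fold change 0.35 ± 0.093, adjusted p = 0.00572, limma).

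Of 12 other nucleotide genes 9 were lower and 2 higher than in the mean of the other groups. The fold changes in this and the next lists refer to the same comparison, in which 21.0% of all genes were lower and 20.9% higher. The purine synthesis enzyme PAICS fell, with 6381 ± 306 normalized reads in CR3, 9091 ± 465 in mCherry, 9521 ± 296 in reverse and 9658 ± 158 in scramble (log2 fold change -0.56 ± 0.039, adjusted p = 4.38e-09, limma), and IMPDH2, the guanine nucleotide enzyme, fell by 28.2%. SAMHD1, which breaks down dNTPs, rose, with 2365 ± 35.3 normalized reads in CR3, 1801 ± 49.4 in mCherry, 1814 ± 59.9 in reverse and 1780 ± 62.5 in scramble (log2 fold change 0.40 ± 0.037, adjusted p = 2.09e-07, limma). RRM2B, the p53-inducible small subunit of ribonucleotide reductase, rose by 13.7% (log2 fold change 0.19 ± 0.041, adjusted p = 0.00168, limma), whereas its counterpart RRM2 fell.

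Of 29 other G1/S control genes 11 were lower, 3 higher and 15 not called, with a median of -0.09. The shares over all genes were 21.0% lower and 20.9% higher. CDK6, a G1 kinase, fell, with 1891 ± 154 normalized reads in CR3, 2770 ± 283 in mCherry, 2884 ± 130 in reverse and 2677 ± 138 in scramble (log2 fold change -0.55 ± 0.058, adjusted p = 7.28e-07, limma), and TFDP1, the dimer partner of E2F factors, fell by 21.2%. The 3 that rose were CCND2, E2F5 and RBL2. CCND2, a D-type cyclin, stood at 101, 113 and 112 normalized reads in CR3 and at 1.92 to 9.2 in the other 9 libraries (log2 fold change 4.43 ± 0.275, adjusted p = 1.23e-09, limma). The repressor-type factor E2F5 had 204 ± 28.5 normalized reads in CR3, 113 ± 3.05 in mCherry, 149 ± 12.8 in reverse and 128 ± 9.58 in scramble (log2 fold change 0.65 ± 0.105, adjusted p = 9.44e-05, limma). That fold change is against the mean of the 3 other groups, and against mCherry, scramble and reverse singly it was 0.83, 0.66 and 0.44. The RB relative RBL2 rose by 22.9% (log2 fold change 0.30 ± 0.056, adjusted p = 0.000424, limma) but was not called against mCherry alone (0.0916). The CDK inhibitor CDKN1A (0.12, adjusted p = 0.0659), cyclin D1 (-0.03, 0.442) and RB1 (-0.02, 0.812), read after the values were seen, were not called.

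Of 16 further S phase genes that E2F factors are known to regulate, 15 were lower with a median of -0.30, and the count was 8 without CR3 replicate 1 and 10 with library totals. ATAD2, a chromatin ATPase, fell by 33% (log2 fold change -0.58 ± 0.051, adjusted p = 9.4e-08, limma), FANCD2, of the crosslink repair pathway, by 23%, and the maintenance methyltransferase DNMT1 by 20.9%. All 16 mitosis genes were lower as well, with a median of -0.61, beside 21.0% of all genes lower. The calls of all 16 held under each alternative run. CDC20 fell by 40.8%, KIF20A by 35.5% and BIRC5 by 30.3%. The lists were not tested against each other.

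Per kilobase of the longest principal transcript in GENCODE release 29, which may differ from the annotation that was counted, the genes covered a wide range. PCNA was the highest, with 3767 ± 228 normalized reads per kilobase in mCherry and 3113 ± 145 in CR3 (SD, n = 3), and POLD3 the lowest in both, with 102 ± 8.17 and 91.5 ± 1.67. Subunits that occur once each in a complex differed in level. In the MCM ring MCM7 had 2262 ± 78.6 per kilobase in mCherry and MCM2 had 1124 ± 26.1, and in CR3 they had 1731 ± 20.3 and 877 ± 24.1. In the GINS complex GINS2 was highest, with 476 ± 15.4 in mCherry, and GINS4 lowest, with 139 ± 3.39. In the RPA complex the order in mCherry was RPA1 with 919 ± 22, RPA2 with 857 ± 36.7 and RPA3 with 304 ± 12.7, and in CR3 RPA2, which was not called lower, stood first with 860.5 ± 51.7 against 781 ± 14.4 for RPA1. Across the 42 genes the mean level in the other 9 libraries and the log2 fold change in CR3 correlated at Pearson -0.46 and Spearman -0.45, with lower fold changes at higher levels. Over 11115 genes with a mean of at least 100 normalized reads the values were -0.27 and -0.26. Both axes share the same libraries, genes are not independent replicates, and no p is given.

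Several replication genes start head to head with another gene, which gives a comparison with a transcript from the same stretch of promoter. In 9 of the 42 cases the nearest protein-coding start upstream on the other strand lay within 1000 bases and belonged to a tested gene. Starts downstream of the replication gene's own start were not counted, which leaves out pairs whose 5′ ends overlap. The replication genes of these pairs had a median log2 fold change of -0.32 against the mean of the other groups, with 8 called lower. Their neighbours had a median of 0.01, with 3 lower, 2 higher and 4 not called. Over all genes tested 21.0% were called lower and 20.9% higher, so the neighbours' counts were near those shares. TK1 had -0.69 and AFMID, 84 bases away, 0.10 (limma adjusted p = 0.27). PCNA had -0.36 and CDS2, 160 bases away, rose with 0.14 (0.00504), and POLD3 had -0.27 and LIPT2, 118 bases away, rose with 0.63 (0.0219). MCM4 and PRKDC, whose starts are 2 bases apart, were both lower (-0.45 and -0.25, PRKDC with 0.0373), as were ORC6 and VPS35 (-0.32 and -0.12, 0.0175). CDC45 differed from these, with 0.02 for CDC45 and a decrease of its neighbour UFD1 (-0.10, 0.0321). The difference between a gene and its neighbour was not tested.

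**Figure D5:**
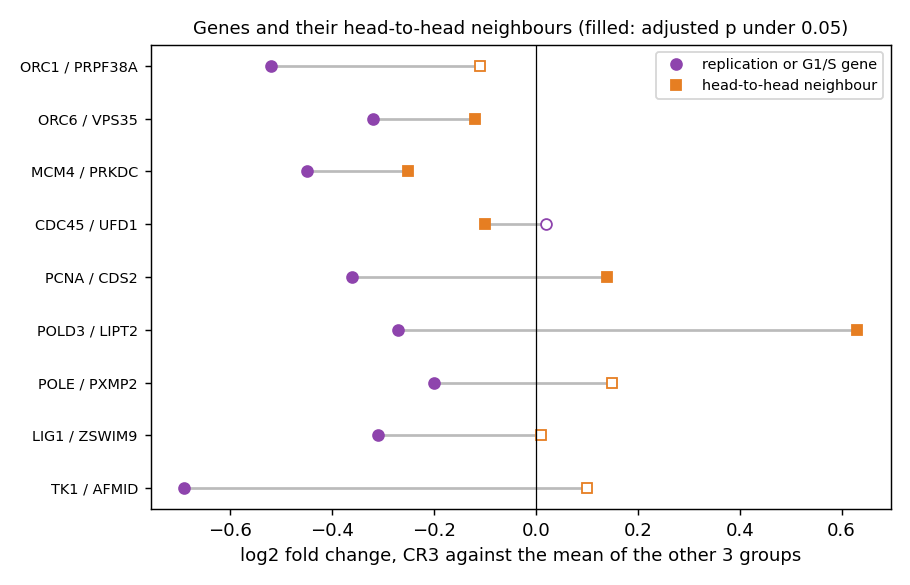
Log2 fold change of CR3 against the mean of the other 3 groups for 9 replication genes (purple circles) and the genes that start head to head with them (orange squares), joined by lines, with filled marks at adjusted p under 0.05. The circles lie at -0.20 or lower except CDC45 at 0.02, and the squares lie between -0.25 and 0.63.

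Some values rest on stretches shared with other genes. In GENCODE release 29 the exons of 20 of the 42 genes overlap those of another gene, on the opposite strand in 16, and the strand setting of the counting was not given in the sources used here. The overlap exceeded 10% of the exon bases in 8 genes. It was 39.1% in TYMS (with ENOSF1), 37.0% in CCNE2 (INTS8), 35.1% in POLA2 (AP000944.2, same strand), 22.7% in MCM2 (AC023593.1), 21.2% in GINS4 (AC009630.2), 20.2% in RRM2 (AC007240.1, same strand), 14.9% in PRIM1 (AC117378.1, same strand) and 10.9% in GINS3 (AC009118.2), so the levels of these genes are uncertain. Processed pseudogenes named after 7 of the 42 genes were in the table, and none exceeded 4 reads in any library.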

How the data were processed

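PolyA RNA was sequenced from 12 HCT116 libraries, grouped and numbered by their titles. Per the submitters' processing notes, STAR, Salmon and featureCounts, FastQC, MultiQC and Trim Galore, GATK, DESeq2 and edgeR took part, with genome build GRCh38, while versions, strand setting and annotation release were not given in the sources used here. Each deposited value is a gene's read count over a size factor, a unit found from the values themselves, with the decimal mark lost. All non-zero cells were whole multiples of the worth of 1 read at some power of 10 (100.0%, tolerance 1e-07). The power was chosen per gene by negative binomial likelihood (dispersion 0.02) with the group labels. Another power within a likelihood ratio of 20 made 2097 cells (0.791%) ambiguous, none of them in the 42 genes, and no cell of these genes was read differently without the labels. With the mark hidden, 98.35% of the cells that kept it were read correctly. Each of these cells held 1 read, so the check does not reach the levels of the 42 genes.

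The filter was 10 reads or more in 3 libraries or more. It left 16165 genes, of which 758 with an ambiguous cell were left out and 15407 were tested with limma 3.58.1 in R 4.3.3 (4 groups in 1 fit, trend, pseudocount 1, 7 contrasts, two-sided, Benjamini-Hochberg). A count model was not used because the deposited values are size-factor-scaled, although whole reads were rebuilt from them. The voom alternative was fitted to those rebuilt reads. Fold changes on this scale understate those of low genes. The method was also run on simulated data in which genes varied independently, and no result here rests on that run. Other steps ran in Python 3.11.15 (pandas 2.3.3, numpy 2.4.6, scipy 1.17.1) and figures in matplotlib 3.10.9. Symbols and gene coordinates came from GENCODE release 29 (GRCh38) and a table of gene names, which matched 52526 identifiers, with 11151 unmatched. Promoters came from RefSeq (GRCh38.p14).

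The members, lists and tests were chosen with earlier results of these data known. Library values are given for the 2 genes of each role with the smallest adjusted p, the largest and smallest fold change, and the 2 smallest adjusted p in each comparison among mCherry, scramble and reverse. POLA2 was added after its values were seen. Alternatives were other scalings, pseudocounts, filters, voom weights, a replicate block, other readings of the powers, fits of the compared groups alone and leaving out each library. No 2 libraries within a group were as alike as counting error alone would make them (chi-square per degree of freedom 2.73 to 9.74), so none was treated as a library deposited again, which does not show that they came from separate cultures.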

Additional observations from a re-analysis of the deposited data

How the results depend on the processing

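No called result changed direction under any alternative run. With library totals as scaling the median log2 fold changes of the 42 genes moved to -0.18 against mCherry, -0.36 against scramble, -0.26 against reverse and -0.27 against the mean of the 3. The count of genes higher in scramble than in mCherry went from 4 to 2 without the low-read filter and to 0 in a fit of these groups alone. Leaving out 1 library at a time gave 0 to 15 genes in that comparison, 0 to 2 in reverse against mCherry and 0 in reverse against scramble. It gave 23 to 29 genes in CR3 against mCherry, 36 to 40 against scramble, 27 to 35 against reverse and 34 to 36 against the mean of the 3. Genes with CR3 below all others numbered 28 to 32, a count that leaving out a library cannot lower. The medians ranged from -0.30 to -0.24, -0.49 to -0.42, -0.40 to -0.33 and -0.41 to -0.32 in these 4 comparisons, from 0.05 to 0.11 in reverse against mCherry and from -0.14 to -0.06 in reverse against scramble. The S phase list had 8 to 15 genes lower, 8 without CR3 replicate 1. Pseudocounts of 0.5 and 5, voom weights, upper quartile scaling and powers chosen without labels kept each of these counts within 1.5 times. The replicate numbers did not pair the libraries: deviations of same-numbered libraries correlated at -0.428 to 0.294 over 11228 genes, above 0.1 in 1 of 18 pairs. Only 1 of 12 libraries was closest to its own number. Libraries of different groups and numbers correlated at -0.579 to 0.579, with both ends between mCherry replicate 3 and a CR3 library. With the replicate block, 26, 39, 33 and 34 genes were lower in the 4 CR3 comparisons and 2 higher in scramble against mCherry. Among the calls named in the text, the block ended those of RFC3 against the mean of the 3 (0.0569), POLA2 against scramble (0.0636), and RFC2 (0.0876) and FEN1 (0.0517) in scramble against mCherry. The cause of these changes was not tested. Each of the 42 genes had at least 216 reads in every library.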
